A study of Mus musculus with 2 samples.

Results

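Kinesins are motor proteins that bind microtubules and use ATP to walk along them or to take them apart. Mitotic kinesins build the spindle, move and align chromosomes and split the cell, and their genes are switched on in G2 and mitosis of dividing cells. Transport kinesins carry vesicles, organelles and ciliary cargo, and most are made whether or not a cell divides. The kinesin genes were taken as every gene name on the arrays of the form Kif followed by a number, or Kifc followed by a number, which gave 40 of 37074 gene names. Each was sorted by its textbook role into 13 mitotic motors, 15 transport motors and 12 others, which are ciliary, depolymerising or atypical kinesins.

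Mouse RNA was measured in 2 groups of 1 array each, named for the agent: S180, and DMSO, the solvent that serves as control. Cell type, strain, dose, time and the identity of S180 are not stated in the labels. Each array carried 62976 spots in 1 colour (Cy3), and no spot was saturated. With 1 array a group there is no replicate and no p-value, so every value below describes these 2 RNA samples. With no cell type given, marker genes were read instead: of 8 melanocyte markers all 8 were well above background on both arrays, with signals from 4651 (Tyr) to 215584 (Mlana) on the S180 array, whereas 6 of 8 endothelial and 4 of 8 epithelial markers were above it on neither. Of the fibroblast, macrophage and neuron markers 6, 6 and 5 of 8 were above it on both.

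A gene is represented by its brightest probe among those well above background on both arrays, by the scanner software's flag. This held for 36 of the 40 kinesins, 12 mitotic, 13 transport and 11 other, and for 20782 genes in all. Signals are the software's background-subtracted intensities. The 75th percentile of the S180 array was 615 and that of the DMSO array 748, so most signals below read lower on the S180 array before scaling, and every difference is therefore the log2 signal minus that percentile, S180 minus DMSO. Levels of different genes are not compared, because each probe has its own brightness. Genes were divided into 3 groups of equal size by mean signal. The SD of a difference between single spots of replicated probes was 0.042 (log2) in the bright group, 0.072 in the middle group and 0.27 in the dim group. The bright value rests on 262 replicated probes, but the middle value on only 6 and the dim value on 11. The software's own error, which includes a fixed 10% of each signal, gave 0.204 (log2) for the difference of a bright probe. Both errors cover the array only.

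By their brightest probes, most mitotic motors had slightly lower values in the S180 sample, and the transport motors spread around the median gene. All 12 measured mitotic motors had a difference below 0, from -0.55 (Kif23) to -0.00 (Kifc1), with a median of -0.24, or 1.18-fold lower. That count depends on the sorting of Kif2a, a depolymerase of spindle poles and axons placed among the others, which was at 0.07. With Kif2a counted as mitotic, 12 of 13 lay below the median gene. The 13 transport motors ran from -0.47 (Kifc2) to 0.16 (Kif3c) with a median of -0.03, and 6 of them lay above 0. The median of all 20782 genes was 0.00. The class medians were thus 0.21 (log2) apart, or 1.16-fold. On second-brightest probes, which 8 motors of each class have, the mitotic median was -0.089, the mitotic minus transport difference -0.077, and 4 of the 8 mitotic motors lay below the median gene.

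**Figure D1:**
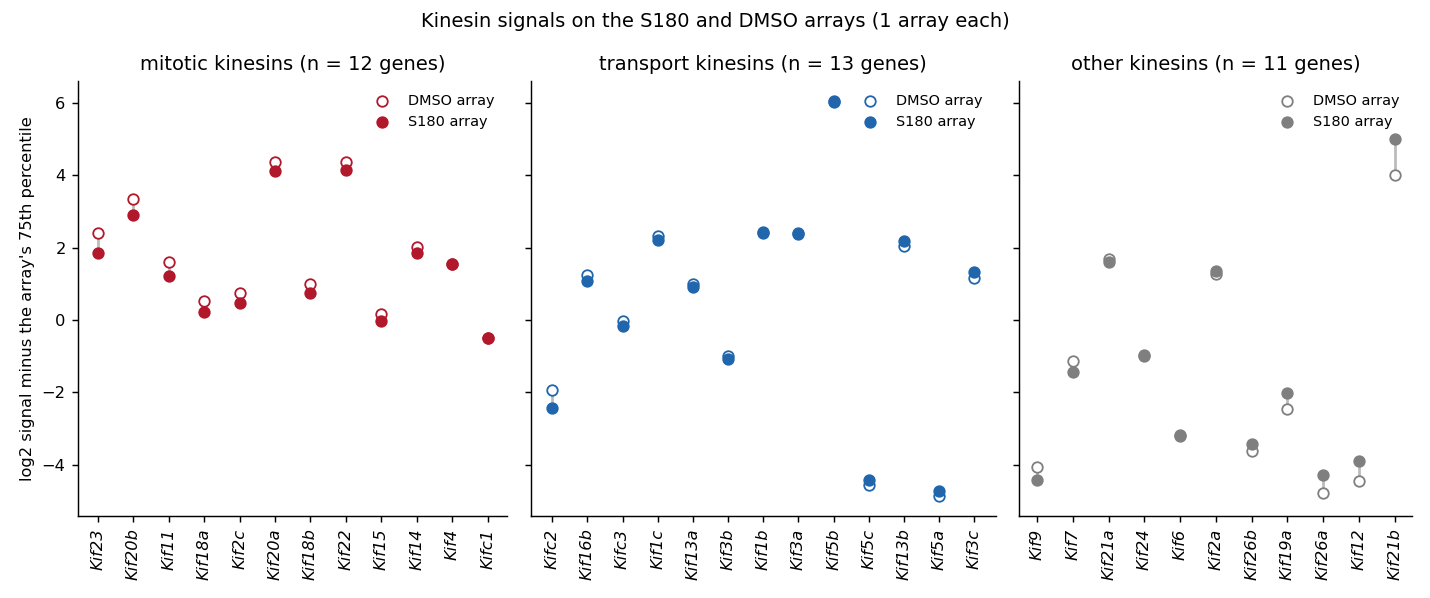
Log2 signal minus the 75th percentile of its array (vertical axis) for the brightest measured probe of each kinesin, with the DMSO array as open and the S180 array as filled points, joined by a grey line. Positions can be compared within a gene only. The filled point lies below the open one for Kif23, Kif20b and Kif11, and above it for Kif21b, Kif12, Kif26a and Kif19a.

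Sizes were counted past 0.32 on the log2 scale, where the brighter sample exceeds the dimmer by 25% after scaling. By that limit 3 of the 12 mitotic motors were lower in S180, against 8.04% of all genes, and 0 were higher, against 11.6%. No mitotic or transport motor was 1.5-fold lower, which 1.71% of all genes were, or 1.5-fold higher, which 3.08% were. All 12 mitotic motors lay below the median gene, where 50% of genes lie by construction, although Kif4 and Kifc1 lay 0.03 above the median of their own signal group. The count was 10 of 12 with quantile normalisation, with cyclic loess and with the mean of all measured probes. Of the transport motors 7 of 13 lay below the median gene, 1 was past 0.32 downward and 0 upward. The classes overlap: only 1 mitotic motor, Kif23, lay below every transport motor. Kifc2 has the lowest value of its class, at -0.47. Its signal in the dim group carries the wider replicate-spot error, but its difference exceeds the software's error for it, 0.208. The lowest of the 12 transport motors other than Kifc2, Kif16b at -0.16, was within 0.01 of the tenth-lowest mitotic motor, Kif14 at -0.17.

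Against the array's own error, 8 of the 12 mitotic motors were lower in S180 by more than the software's error, as were 15.4% of all genes. For 10 of the 12 the difference exceeded 2 replicate-spot SDs, which 20.2% of all genes exceeded in that direction. The middle group holds 8 of the 12, and its SD comes from only 6 replicated probes. Of the transport motors 1 of 13, Kifc2, was lower by more than the software's error and 3 by more than 2 replicate-spot SDs, while 2 were higher by more than 2 such SDs, against 21% of all genes. None was higher by more than the software's error, which 18.5% of all genes were. The errors leave out the culture, the RNA preparation and the labelling, so none of these counts shows what a second culture would give.

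Kif23, the motor subunit of centralspindlin, which bundles the central spindle before cytokinesis, had the largest difference of the mitotic class. Its brightest probe read 2221 in S180 and 3952 in DMSO, a scaled difference of -0.55, or 1.46-fold lower in S180. On chromosome 9 the probe aligns between 61767733 and 61768853 (mm9 coordinates, which hold for every probe below), a stretch of 1121 bases for a probe of 60, so that it reads across a splice junction. Of the other 3 measured probes of Kif23, those read as 722 against 1186 and as 54.7 against 99.1 were also lower, by differences of -0.43 and -0.58. The remaining probe, from 61770729 to 61770788, read 79.2 against 79.9 and gave 0.27 in the opposite direction. The 2 dimmer probes with lower values lie upstream of it in the gene, from 61774902 to 61775155.

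Kif20b, a motor of the midbody, had both of its measured probes lower by nearly the same amount. The brighter probe read 4572 in S180 and 7616 in DMSO (-0.45, 1.37-fold lower), and the other, which also reads across a splice junction, 967 and 1561 (-0.41). The sequences of the junction-spanning probes of Kif23 and Kif20b are shown because they can pair over their full length only with spliced RNA, and each has at least 1 reading frame without a stop codon. They are given 5′ to 3′ as on the array, without capitals since no part is singled out.
Kif23 probe, chromosome 9, minus strand: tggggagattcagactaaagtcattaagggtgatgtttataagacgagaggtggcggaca
Kif20b probe, chromosome 19 from 35017012 to 35022112, plus strand: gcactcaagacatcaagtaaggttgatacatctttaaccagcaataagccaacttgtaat

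Kif11 (Eg5), which slides antiparallel microtubules to push the spindle poles apart, read 1429 in S180 and 2267 in DMSO on its only probe, a difference of -0.38 (1.31-fold lower). Kif23, Kif20b and Kif11 were the mitotic motors past 0.32. Kif15, which crosslinks spindle microtubules and can stand in for Kif11, read 605 and 832 (-0.18) on its brightest probe, and its 4 measured probes ran from -0.23 to 0.08.

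Among motors that act at kinetochores and on chromosomes, none was past 0.32. Kif18a, which dampens the movements of chromosomes at the metaphase plate, read 719 in S180 and 1084 in DMSO (-0.31). Kif2c (MCAK), which takes microtubules apart at centromeres to correct faulty attachments, read 851 and 1247 (-0.27), but its dimmer probe gave 0.03. Kif22 (Kid), a chromosome-bound motor, read 10919 and 15415 (-0.22), again with a dimmer probe at 0.03. Kif4, the other chromokinesin, did not share this, since its signals of 1810 and 2207 are within 0.01 (log2) of each other after scaling. Kif18b, which acts at the ends of astral microtubules, read 1036 and 1482 (-0.24).

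The other motors of cytokinesis were lower by less than Kif23. Kif20a, which brings the chromosomal passenger complex to the central spindle, read 10634 in S180 and 15362 in DMSO (-0.25). Kif14 read 2219 and 3027 (-0.17), and all 4 of its measured probes were lower, from -0.28 to -0.04. Kifc1, a minus-end motor that focuses the spindle poles, read 436 and 530, equal after scaling (-0.00). Its dimmer probe was higher by 0.27. The mitotic motor Kif2b was above background on neither array.

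**Figure D2:**
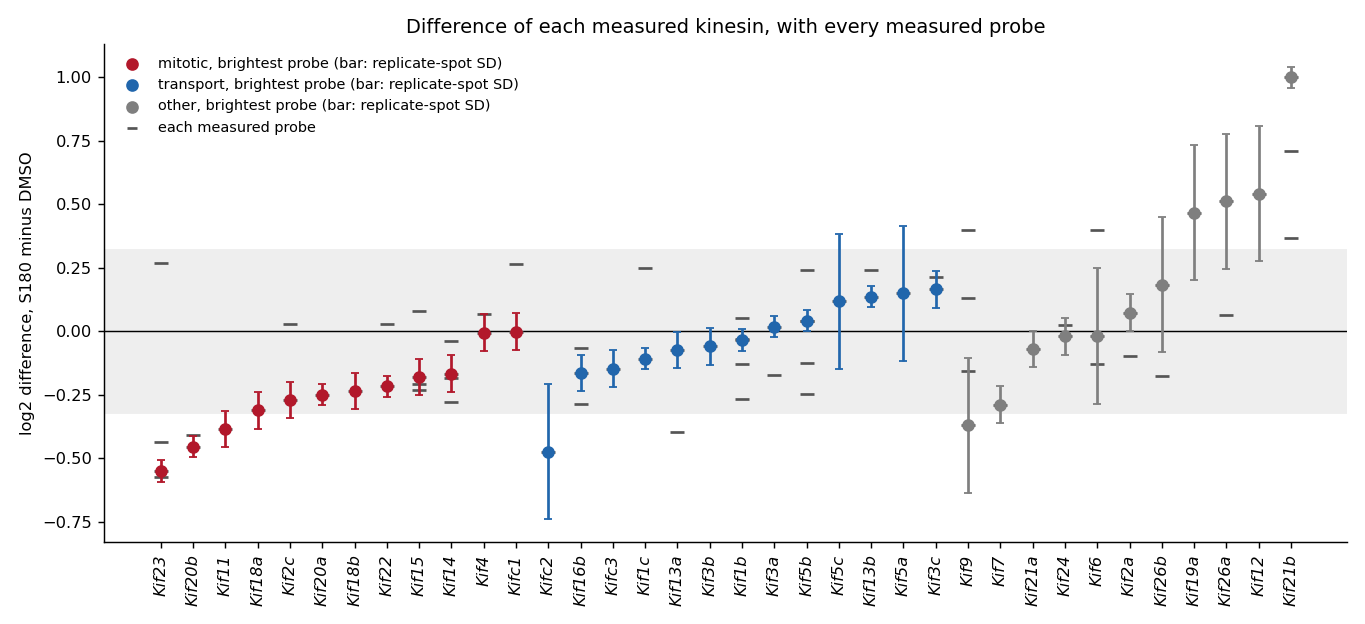
Log2 difference, S180 minus DMSO, of the 36 measured kinesins. Coloured points are the brightest probe with 1 SD of a difference between replicate spots of like signal, dashes are every measured probe of the gene, and the grey band is differences under 0.32. The red mitotic points lie at or below 0, the blue transport points spread around it, and the probes of Kif23 reach from -0.58 to 0.27.

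The probes of a gene did not all agree. Over the mitotic class 20 of 26 measured probes were lower in S180, over the transport class 16 of 28. By their brightest probes, 10199 of all 20782 genes were lower, and the share over all probes was not counted. Probes of a gene are not independent, and Kif14, Kif15 and Kif23 hold 4 each of the 26. In the 8 mitotic motors with more than 1 measured probe, the brightest had a median of -0.20 and the second brightest -0.089, and the pair had the same sign in 4 of the 8. In 6 of the 8 the second brightest gave the higher value. In the 8 transport motors with more than 1 measured probe the medians were -0.01 and -0.01. In the bright group alone the distance was larger: the 4 mitotic motors there (Kif23, Kif20b, Kif20a and Kif22) had a median of -0.35 and the 5 transport motors 0.02, with all genes of that group at 0.01. In that group 1.88% of genes were past 0.32 downward, Kif23 and Kif20b among them, and 6.19% upward, Kif21b among them. Base composition of the probes differed little, with a median GC content of 43.3% for the mitotic and 40% for the transport motors, and relative to genes of like probe GC the medians were -0.27 and -0.02.

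**Figure D3:**
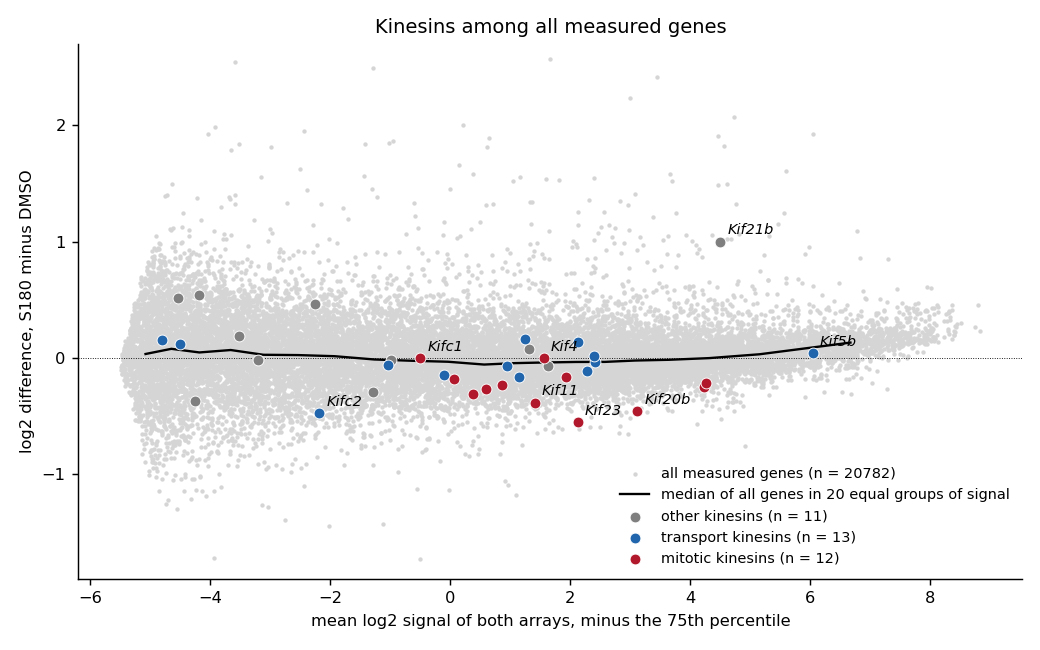
Mean log2 signal of both arrays (horizontal axis) against the log2 difference, S180 minus DMSO (vertical axis), for all 20782 measured genes in grey, with their running median as a black line and the kinesins in colour. The mitotic motors lie below the black line apart from Kif4 and Kifc1, and Kif21b stands at 1.0.

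The heavy chains of conventional kinesin, which carry vesicles, mitochondria and other cargo, differed little between the arrays. Kif5b, the heavy chain of most cells, read 41164 in S180 and 48592 in DMSO (0.04), with 5 measured probes from -0.25 to 0.24. The neuronal heavy chain gene Kif5a was on the array in 10 replicate spots, which read from 15.8 to 30.4 with a median of 23.3 on the S180 array. On the DMSO array they ran from 20 to 33.5 with a median of 25.9. The single spots overlap widely, with log2 SDs of 0.29 on the S180 and 0.23 on the DMSO array. The difference of 0.15 is between means of 10 spots. The replicate-spot SD of that signal range, 0.27, is for single spots, so it does not measure the error of these means. Kif5c, the other neuronal form, read 28.4 and 31.8 on 1 spot an array, and its difference of 0.12 is within that single-spot SD.

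The kinesin-2 subunits, which move cargo out along cilia, were near the median gene as well by their brightest probes. Kif3a read 3250 in S180 and 3902 in DMSO (0.02), with -0.17 from its second probe, and its partner Kif3b 294 and 372 (-0.06). Kif3c, a form abundant in neurons, read 1542 and 1672 (0.16), and its second probe gave 0.21. The homodimeric Kif17 was above background on the S180 array alone, at 13.6 against 13.5, too close for a fold to be given. Of the 19 measured genes of intraflagellar transport, the ciliary cargo system that these motors drive, 0 were past 0.32 in either direction, and their median was -0.07. Of these 10 lie in the bright group, where 1.88% of genes were past it downward and 6.19% upward. The other 9 lie in the middle group, where 8.37% were past it downward and 8.53% upward.

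Kinesin-3 motors, which carry vesicles and endosomes, ran from -0.16 to 0.14 by their brightest probes. Kif16b, of early endosomes, read 1289 and 1756 (-0.16) and was lower on all 3 probes. Kif1c read 2872 and 3763 (-0.11), Kif13a, of recycling endosomes, 1157 and 1480 (-0.07), and Kif1b, of mitochondria and synaptic vesicle precursors, 3262 and 4060 (-0.03). Kif13b read 2813 and 3110 (0.14). None of these brightest probes reached the software's error of 0.204. Each of the motors has a dimmer probe further from 0, at -0.40 for Kif13a, -0.29 for Kif16b, -0.27 for Kif1b and 0.24 for Kif13b. That of Kif1c, at 0.25, has the opposite sign to its brightest. The neuronal Kif1a was above background on neither array, with none of its 10 replicate spots above it.

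Of the minus-end transport motors, Kifc2, known from neurons, read 115 in S180 and 194 in DMSO, a difference of -0.47 (1.39-fold lower). It was the transport motor with the lowest value, on a single measured probe, and with normexp background correction its difference was -0.28. Kifc3, of epithelial junctions and membranes, read 545 and 733 (-0.15).

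The remaining kinesins went both ways, with 4 of 11 past 0.32 upward, against 11.6% of all genes, and 1 downward, against 8.04%. Kif21b, a kinesin-4 that restrains microtubule growth, had the largest difference of the family. It read 19667 in S180 and 11944 in DMSO, the only kinesin of the bright and middle groups whose unscaled signal was higher in S180. The scaled difference was 1.0, or 2.0-fold higher, a size that 0.582% of all genes reached upward and 0.168% downward. No other kinesin reached it. Kif21b reached it only just, and stood at 0.96 with quantile normalisation, 0.98 with cyclic loess, 0.97 with normexp, 0.72 without scaling and 0.65 on spike-in transcripts. The probe lies on chromosome 1 from 138074490 to 138074549. Its other 2 measured probes read 155 against 115 (0.71) and 18 against 17 (0.37), so that all 3 were higher. Its paralogue Kif21a read 1870 and 2385 (-0.07).

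The other 3 kinesins past 0.32 upward lay in the dim group, where the replicate-spot SD is 0.27 and 20% of genes were past 0.32 upward and 13.9% downward. Kif12, of kidney and liver epithelia, read 40.9 in S180 and 34.1 in DMSO (0.54). Kif26a, an atypical kinesin without motor activity, read 31.7 and 27.0 (0.51), with 0.06 from its other probe, and Kif19a, which sets the length of motile cilia, 153 and 134 (0.47). Kif9, of motile cilia, read 28.5 and 44.8 (-0.37) but its 4 measured probes ran from -0.37 to 0.40. With normexp background correction Kif12 was at 0.31, Kif26a at 0.28 and Kif9 at -0.085, all within 0.32, and Kif19a at 0.33. Kif7, a regulator of Hedgehog signalling at the ciliary tip, read 229 and 340 (-0.29), Kif26b, an atypical kinesin, 57.1 and 61.1 (0.18), and Kif2a, a depolymerase of spindle poles and axons, 1577 and 1822 (0.07). Kif24, of centrioles, and Kif6, of motile cilia, were each at -0.02, and Kif27 was above background on neither array.

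The promoters of genes that peak in G2 and mitosis commonly carry a CHR element near the start of transcription, which the DREAM and MuvB complexes bind, and CCAAT boxes bound by NF-Y. The RefSeq promoter windows of build GRCm38.p6, 250 bases before to 50 after each start, were searched on both strands for CCAAT and for the CHR letters, TTTGAA and its variant TTCGAA. Matches of different kinds can overlap by an end base only. Of the 40 kinesins 32 had a window, 36 windows in all, and Kif5a, Kif5b, Kif13b, Kif19a, Kif20a, Kif21b, Kifc2 and Kifc3 had no entry. CHR letters stood in 10 of 12 mitotic windows (83.3%), in 1 of 12 transport windows (8.33%) and in 3 of 12 windows of the other kinesins (25%), beside 19.2% of all 32851 windows. CCAAT stood in 8 mitotic windows (66.7%), 4 transport windows (33.3%) and 37.4% of all windows. Both kinds stood together in 7 mitotic windows (58.3%), in 0 transport windows, in 3 windows of the other kinesins (25%) and in 7.52% of all windows. The 12 mitotic windows include that of Kif2b, above background on neither array, and lack Kif20a, so they are not the 12 measured mitotic motors. Windows of a gene with more than 1 start can overlap, and a match is a run of letters, not a measured site.

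**Figure D4:**
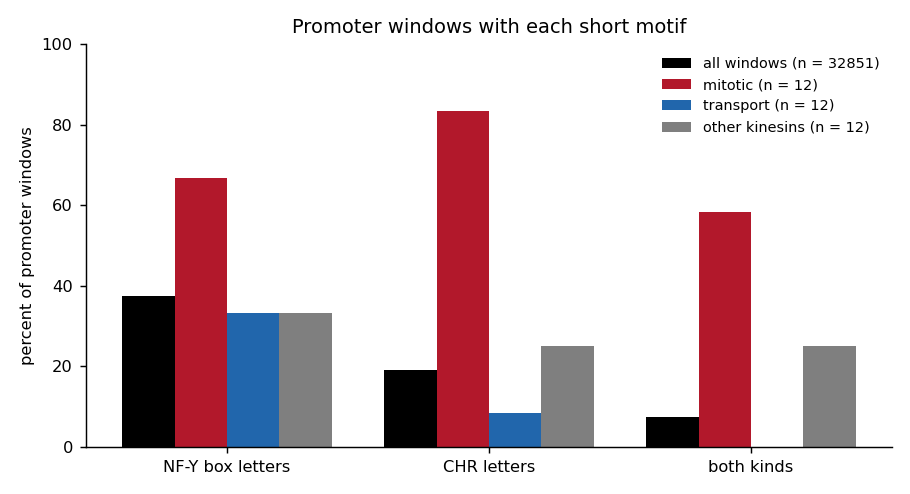
Percent of promoter windows (vertical axis) that hold the letters CCAAT (NF-Y box letters), the CHR letters or both, as matches anywhere in the window, for all RefSeq windows in black, mitotic kinesins in red, transport kinesins in blue and other kinesins in grey. The CHR letters bar of the mitotic motors stands at 83.3% and that of all windows at 19.2%.

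The windows of the 2 mitotic motors with the largest differences and of Kif11, which was added after the matches were seen, are shown from 100 bases before the start to 30 after it, because they show where the letters fall in these genes. Capitals mark CCAAT, which reads ATTGG when on the opposite strand, and TTTGAA, which then reads TTCAAA, and positions count from the start as 1.
Kif23, chr9:61946770-61946899, minus strand: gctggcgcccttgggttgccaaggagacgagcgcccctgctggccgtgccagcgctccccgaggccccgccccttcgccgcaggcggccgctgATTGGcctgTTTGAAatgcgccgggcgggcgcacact
Kif20b, chr19:34922258-34922387, plus strand: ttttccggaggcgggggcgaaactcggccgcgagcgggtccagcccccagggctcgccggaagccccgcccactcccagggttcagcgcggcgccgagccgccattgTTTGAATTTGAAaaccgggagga
Kif11, chr19:37376282-37376411, plus strand: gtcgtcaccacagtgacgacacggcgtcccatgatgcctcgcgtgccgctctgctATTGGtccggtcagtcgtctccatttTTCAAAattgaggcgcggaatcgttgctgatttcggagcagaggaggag
In Kif23 the CCAAT box begins at position -7 and the CHR letters at 3. Kif20b holds the CHR letters in tandem at 8 and 14 and no CCAAT. Kif11 holds CCAAT at -45 and the CHR letters at -19, both on the opposite strand. Not all mitotic motors have the CHR letters so near the start. Those of Kif14 stand at -228 and those of Kif2c at -103. Kif4 and Kifc1, the mitotic motors nearest to 0, hold both kinds, and Kif18a (-0.31) holds neither.

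The kinesins whose names do not follow the pattern are given for completeness. Cenpe, the kinesin that brings chromosomes to the metaphase plate, read 14971 in S180 and 22598 in DMSO (-0.31), Stard9, a kinesin of the centrosome, 455 and 671 (-0.28), and Kifc5b, a close paralogue of Kifc1, 252 and 266 (0.20). Partners of the mitotic motors were lower by less. Of 18 measured partners 17 lay below the median gene, their median was -0.10, and 2 were past 0.32 downward (8.04% of all genes, 1.88% of the bright group, which holds 14 of the 18): Bora, an activator of Aurora A, at -0.78 (258 against 539) and Hmmr, a spindle protein, at -0.39 (3971 against 6318). Racgap1, the partner of Kif23 in centralspindlin, was at -0.07, and Prc1, which Kif20a and Kif4 meet at the central spindle, at 0.03. The chromosomal passenger genes Aurkb, Incenp, Cdca8 and Birc5 lay from -0.11 to -0.04. Ndc80 of the kinetochore was at -0.29 and the mitotic kinase gene Plk1 at -0.21.

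The 12 kinesin light chains and adaptors had a median of -0.07. Past 0.32 were 1 downward, Rhot2, a mitochondrial adaptor, at -0.33, and 1 upward, Mapk8ip1, a cargo adaptor of conventional kinesin, at 0.35. These counts are near the shares of all genes, 8.04% downward and 11.6% upward. The light chains Klc1, Klc2, Klc3 and Klc4 were at -0.09, -0.05, 0.28 and 0.21. Of 21 measured genes of cytoplasmic dynein and dynactin, the motor that runs the other way along microtubules, 0 were past 0.32, and the median was 0.04. The bright group holds 20 of the 21, so that a count of 0 is near its share. Of 12 tubulins, the track itself, 2 were past 0.32 upward and 0 downward. Upward 11.6% of all genes were, and 6.19% of the bright group, which holds 10 of the 12. Downward 1.88% of that group were. The tubulin median was 0.17, and 2 of the 12 lay below the median gene. Past 0.32 were Tubb2b at 1.01 (10273 against 6182) and Tuba1a at 0.33.

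Of 16 genes of S phase and proliferation 0 were past 0.32, near the share of the bright group in which all 16 lie, and the median was -0.03, with Mki67, a marker of cycling cells, at -0.10 and Top2a at -0.02. Of 14 measured factors of G2 and mitosis transcription 1 was past 0.32 downward, near the 8.04% of all genes. This was Rbl1, a pocket protein of the DREAM complex, at -0.36, while Foxm1 was at 0.02 and Mybl2 at 0.16. In RNA from many cells together, fewer cells in mitosis and less kinesin RNA in each such cell cannot be told apart. Some markers of other cell types also had lower values. Of the fibroblast markers 5 of 6 measured were past 0.32 downward, against 8.04% of all genes and 13.9% of the dim group, which holds 4 of the 6. Their summed signal was 1454 in S180 against 2575 in DMSO, a log2 ratio of -0.54 after scaling. Col1a2 made up the most of that sum at -0.83, while Col1a1 was at -0.02. Of the epithelial markers 3 of 4 measured were past 0.32 downward, all in the dim group, where 13.9% of genes were. Their summed signals of 105 and 168 gave a log2 ratio of -0.41 after scaling. Of the macrophage markers 2 of 6 were past 0.32 downward, Lyz2 at -0.84 and Cd14 at -0.33. The shares were 8.04% of all genes and 13.9% of the dim group, which holds 2 of the 6. The summed signals of the macrophage list, 6851 and 7542, gave a log2 ratio of 0.14 after scaling, higher in S180. Itgam, at 0.26, made up the most of that sum. Of the 5 measured neuron markers 0 were past 0.32 in either direction, and their median was 0.14. Over all genes 8.04% were past it downward and 11.6% upward, so 0 of 5 says little. The dim group, with shares of 13.9% and 20%, holds 3 of the 5. Col3a1 and Thy1 were above background on neither array. Their part in the kinesin differences was not tested.

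The choice of scaling sets the zero point. When 8 spike-in transcripts set the zero, the median of all genes was -0.35, the mitotic median -0.60 and the transport median -0.39, and 12 of 12 mitotic and 8 of 13 transport motors were past 0.32 downward, as were 55.3% of all genes. A shift of all genes alike cannot change the distance between the classes. With scalings that can, the mitotic median minus the transport median was -0.19 with quantile normalisation and -0.21 with cyclic loess, as the plot of class medians by processing shows.

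**Figure D5:**
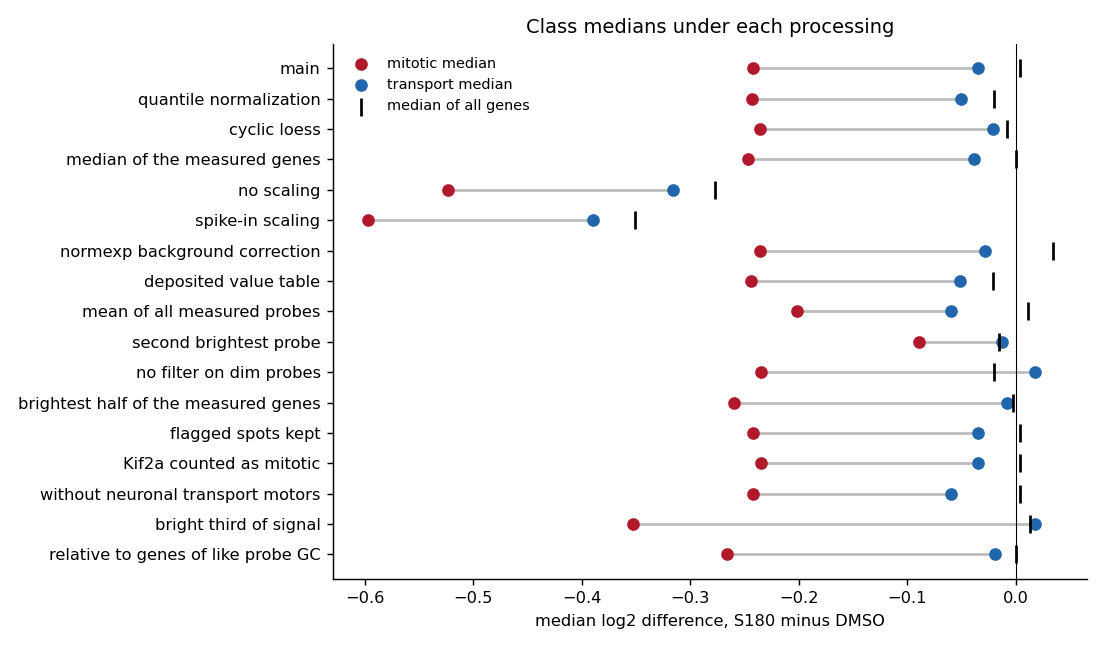
Median log2 difference, S180 minus DMSO (horizontal axis), of the mitotic motors in red and the transport motors in blue under each processing, with the median of all genes as a black tick. The red point lies left of the blue one under every processing shown, and they are closest on the second-brightest probe, where the mitotic minus transport difference is -0.077.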

How the data were processed

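Total RNA of 2 samples was labelled with Cy3 and hybridised to 1 Agilent mouse array each, per the labels' protocols. Spot intensities come from the scanner's software, Agilent Feature Extraction 10.7.1.1, which subtracted background but did not scale arrays to each other, per the file headers. How the authors made the log2 values of their deposited table is not stated. They matched quantile-normalised log2 signals to within 0.1 for 99.99% of 56602 probes. Each column followed its own array, both had a median of 5.27, and the values served as an alternative.

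Control spots and flagged spots (120 and 195) were left out, spots of a probe were averaged as log2, and the array's 75th percentile was subtracted. Gene names are those in the files. Kinesins, their roles and the other gene lists were chosen with earlier results of these data known, and the lower values of mitotic genes were among those results. Every member is reported. Outside the family only listed genes are named: the 3 largest differences of a list at most, or any kinesin relative, adaptor or partner, and Mki67, Top2a, Foxm1, Mybl2 and the markers Tyr, Mlana, Col1a1, Col3a1 and Thy1, which were chosen after their values were seen. Counts use a difference of 0.32 (log2), with 1.5-fold and 2-fold as alternatives. No protein sequences were used here. Alternatives were computed with limma 3.58.1 in R 4.3.3 and Python 3.11.15, including normexp with an offset of 50, and the steps were tested on simulated data.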

Additional observations from a re-analysis of the deposited data

How the results depend on the processing

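No paired analysis was possible because each group holds 1 array. The mitotic median lay below the transport median under all 16 alternatives, of which 3 (median, no and spike-in scaling) shift all genes alike and cannot change this, and the deposited table matches quantile normalisation. Without scaling the mitotic median was -0.52 and the transport median -0.32, and on the spike-in scale -0.60 and -0.39. The motors past 0.32 (log2) downward then numbered 10 mitotic and 6 transport without scaling, beside 41.6% of all genes, and 12 and 8 on spike-ins, beside 55.3%. On second-brightest probes, which 8 mitotic and 8 transport motors have, the mitotic median was -0.089, the distance between classes -0.077, and 4 motors of each class lay below the median gene. Of the 23 kinesins with such a probe 14 kept their sign. At 1.5-fold and at 2-fold 0 mitotic and 0 transport motors were lower. The 1 transport motor past 0.32, Kifc2, was at -0.28 with normexp, which left 0. Without the neuronal motors and in the brightest 50% of genes the count was 0 because Kifc2 is not in the set. The brightest 50% holds 21 kinesins, 4 transport motors below the median gene among them. In the bright group of signal, an alternative chosen after seeing the data like that of probe GC, the mitotic median was -0.35 and the distance -0.37. Kif9 turned to 0.00056 with the mean of its probes. The cause of the other changes was not tested. Under 12 alternatives 295 of 404 values of single kinesins moved by less than the replicate-spot SD and 109 by more, 72 of these without scaling or on spike-ins. Dim signals limit Kif5a, Kif5c, Kif9, Kif12 and Kif26a.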
